A study of Macaca mulatta with 12 samples.

Results

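Interferon receptor chains and the STAT and IRF transcription factors that carry their signal were followed across macrophage libraries of rhesus macaques (Macaca mulatta). Of 9 genes chosen by name, with earlier results of these data known, 8 had a row in the deposited table of 32386 genes. These were the receptor chains IFNAR1, IFNAR2 and IFNGR2 and the factors STAT2, IRF9, IRF1, IRF7 and IRF8. No row carried the symbol or a mapped identifier of the other receptor chain, IFNGR1, so IFNGR1 was not analysed here. All 8 passed the filter on low counts and were tested. Both time comparisons gave the same split by the test. The 5 factors were lower in late than in early cells, and none of the 3 receptor chains passed. Of all genes tested, 40.7% were called in unstimulated and 38.8% in stimulated cells, 19.8% and 19.7% as lower late. In unstimulated cells IFNAR1 narrowly missed the threshold, and its fall (log2 -0.44) was no smaller than that of the factor IRF9 (-0.39).

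Type I interferons bind a receptor built of IFNAR1 and IFNAR2, and interferon-gamma binds a receptor built of IFNGR1 and IFNGR2. The kinases JAK1, JAK2 and TYK2 sit on these chains and phosphorylate STAT proteins. Type I signalling assembles the complex ISGF3, which holds STAT2 and IRF9 and binds interferon-stimulated response elements. IRF1 is an early target and effector of interferon-gamma, IRF7 drives interferon-alpha genes, and IRF8 is needed for monocyte and macrophage differentiation.

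Cells sorted from blood as CD14+CD16-CD163+ macrophages were taken 4.5 months (early) or 19 months (late) after animals received back their own CD34+ cells. In all 4 groups those CD34+ cells had been treated with CRISPR/Cas9, the series title names TET2-mutant hematopoiesis, and no group is labelled as unedited. Wells of 250000 cells were kept for 8 h without stimulus (Early CTL and Late CTL) or stimulated (Early ACT and Late ACT). Per the protocol the stimulus was 100 ng/ml of lipopolysaccharide (LPS) plus 20 ng/ml of interferon-gamma, although the treatment field mentions only LPS. Each group had 3 libraries. The labels do not say whether these are separate animals or wells, nor what share of the cells carried an edit or the animals' ages. A p-value here thus covers the library-to-library spread alone, and that spread could be technical. Dates are not given, so time after transplant and any batch cannot be told apart.

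Library totals ran from 3910680 to 12972505 counts. The early libraries had a count for 13883 to 16132 genes and the late libraries for 17470 to 20760, without overlap. The smallest total, in Late CTL replicate 1, came with 17470 genes, and the largest, in Early ACT replicate 2, with 15804. The part of this difference in the time comparisons was not tested. TET2 was present at 250.3 to 437 CPM (counts scaled to a common library total) in the 12 libraries, and gene counts do not show a small edit. Among macrophage markers CD14 was at 1376 to 2824 CPM and MRC1 at 0.869 to 4.22 CPM. The summed T cell markers were at most 3.26 CPM and the B cell markers at most 6.80 CPM, while neutrophil markers summed to 253 to 614 CPM, mostly CSF3R, and platelet markers to 335 to 520 CPM, mostly TUBB1. Replicate 1 of Early ACT stood apart from replicates 2 and 3. A chi-square of its counts against theirs, per degree of freedom, was 28.4 and 29.3, against 2.82 between replicates 2 and 3, and comparisons that use Early ACT are also given for the 8 genes without it. Late CTL replicate 3 stood apart to a smaller degree, at 10.5 and 10.8 against 3.35 between Late CTL replicates 1 and 2.

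Fold changes, standard errors (SE) and p-values come from edgeR's quasi-likelihood test over 11826 genes with Benjamini-Hochberg adjustment and a threshold of 0.05. The test scales libraries by TMM factors, whose range over libraries was 0.879 to 1.10 with the smallest in Early ACT, and the CPM levels given here are unscaled, so a fold need not equal the ratio of the levels. Levels are compared between libraries and not between genes, because transcript lengths were not used here.

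IFNAR1, the low-affinity chain of the type I receptor, read 50.1, 46.1 and 39.1 CPM in Early CTL and 32.5, 32.7 and 28.2 CPM in Late CTL. It read 16.5, 35.3 and 29.7 CPM in Early ACT and 29.8, 30.2 and 32.04 CPM in Late ACT. Early CTL was the highest of the groups and overlapped none of them, the Early ACT libraries spread most widely, and the other 3 groups overlapped. The late over early difference in unstimulated cells was -0.44 ± 0.18 (log2, SE), with an edgeR adjusted p of 0.0561. That value missed the threshold, but it passed in 8 of 21 alternative settings, among them the fit without Early ACT replicate 1 (-0.46, edgeR adjusted p 0.00300). It also passed without Early CTL replicate 3 (-0.54) and without Early ACT replicate 2 or 3 (-0.46 each), with no low-count filter (-0.50), with a stricter filter (-0.46), with library totals alone (-0.53) and with the compared groups alone (-0.40). In the authors' deposited table IFNAR1 is listed at -0.43 with an adjusted p of 0.0366. In stimulated cells the difference was -0.01, with a 95% interval of -0.38 to 0.36, and without Early ACT replicate 1 it was -0.24 (edgeR adjusted p 0.179).

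IFNAR2, the chain that binds type I interferon tightly, read 240, 221 and 262 CPM in Early CTL, 226, 247 and 249 CPM in Early ACT, 256, 230 and 232 CPM in Late CTL, and 268, 238 and 264 CPM in Late ACT. Ordered by mean, each group overlapped the next, and the highest group mean was 1.07 times the lowest. Late over early the log2 difference was 0.08 in unstimulated cells (95% interval -0.15 to 0.32) and -0.06 in stimulated cells (-0.29 to 0.17).

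IFNGR2, the signalling chain of the interferon-gamma receptor, read 846, 812 and 881 CPM in Early CTL, 943, 767 and 762 CPM in Early ACT, 824, 787 and 896 CPM in Late CTL, and 769, 762 and 771 CPM in Late ACT. The Late ACT libraries lay close together at the bottom of the range, and Early ACT held both the highest single value and values near the lowest. The late over early difference was 0.07 in unstimulated cells (95% interval -0.16 to 0.31). In stimulated cells it was -0.25 ± 0.11 (log2, SE; edgeR adjusted p 0.0745), which missed the threshold, and without Early ACT replicate 1 it was -0.15 (edgeR adjusted p 0.113). It passed in 4 of 21 alternatives, with no low-count filter (-0.30), without Early ACT replicate 2 or 3 (-0.33 each) and without Late CTL replicate 3 (-0.27).

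STAT2, a subunit of ISGF3, read 50.0, 57.0 and 54.4 CPM in Early CTL and 23.0, 34.01 and 26.8 CPM in Late CTL. It read 64.3, 52.6 and 51.7 CPM in Early ACT and 26.3, 22.2 and 22.4 CPM in Late ACT. Every early library lay above every late library, and within each time the unstimulated and stimulated libraries overlapped. The late level was 1.79-fold lower in unstimulated cells (log2 -0.84 ± 0.16, SE; edgeR adjusted p 0.000149). It was 2.62-fold lower in stimulated cells (log2 -1.39 ± 0.16, SE; edgeR adjusted p 2.15e-07).

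IRF9, the DNA-binding subunit of ISGF3, read 342, 336 and 329 CPM in Early CTL, 428, 328 and 353 CPM in Early ACT, 250, 230 and 240 CPM in Late CTL, and 178, 200 and 210 CPM in Late ACT. The late groups lay below the early ones without overlap, and Late ACT lay below Late CTL without overlap. In unstimulated cells IRF9 was 1.31-fold lower late (log2 -0.39 ± 0.12, SE; edgeR adjusted p 0.0105), a call that was lost with upper-quartile scaling (-0.27, edgeR adjusted p 0.0822). In stimulated cells it was 2.10-fold lower (log2 -1.07 ± 0.12, SE; edgeR adjusted p 2.15e-07). IRF9 was taken as the row ENSMMUG00000040817, which the name table and the authors' own description call interferon regulatory factor 9, on chromosome 7 at 85572828 to 85578114 in Mmul_8.0.1. The authors' symbol column instead puts IRF9 on the row ENSMMUG00000012474, 559 bases away, which the name table calls RNF31. That neighbouring row was also lower late, by -0.95 in unstimulated and -0.94 in stimulated cells (log2). The library kit does not mark strand, and whether reads were shared between these close rows was not tested.

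IRF1 read 756, 733 and 703 CPM in Early CTL, 758, 587 and 593 CPM in Early ACT, 442, 446 and 477 CPM in Late CTL, and 379, 446 and 439 CPM in Late ACT. The lowest early library, an Early ACT library, stood above the highest late library, and the stimulated groups overlapped the unstimulated ones at each time. IRF1 was 1.5-fold lower late in unstimulated cells (log2 -0.59 ± 0.12, SE; edgeR adjusted p 0.000322) and 1.70-fold lower in stimulated cells (log2 -0.77 ± 0.12, SE; edgeR adjusted p 1.86e-05).

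IRF7 was the most thinly counted of the 8, with 6 to 80 counts in a library. It read 5.92, 6.30 and 3.85 CPM in Early CTL, 7.82, 6.17 and 5.80 CPM in Early ACT, 2.56, 0.952 and 0.925 CPM in Late CTL, and 2.06, 2.87 and 2.16 CPM in Late ACT. The early and late libraries did not overlap in either state, although a Late CTL level rested on at most 10 counts a library. The late level was 3.69-fold lower in unstimulated cells (log2 -1.88 ± 0.39, SE; edgeR adjusted p 0.000489). It was 3.04-fold lower in stimulated cells (log2 -1.60 ± 0.34, SE; edgeR adjusted p 0.000585). Pooled counts were 141 in Early CTL and 23 in Late CTL, or 5.22 CPM (exact Poisson 95% interval 4.40 to 6.16) against 1.30 CPM (0.822 to 1.94), covering counting error only. Among the 4909 genes between 1 and 10 CPM, 535 were called lower and 925 higher late in unstimulated cells, so most calls at that level went the other way. At the levels of the other factors more genes were called lower than higher, as given below.

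IRF8 read 210, 182 and 186 CPM in Early CTL, 234, 172 and 163 CPM in Early ACT, 116, 124 and 138 CPM in Late CTL, and 130, 125 and 126 CPM in Late ACT. Every early library exceeded every late one, and the Late ACT libraries lay within the range of Late CTL. IRF8 was 1.43-fold lower late in unstimulated cells (log2 -0.52 ± 0.13, SE; edgeR adjusted p 0.00332) and 1.66-fold lower in stimulated cells (log2 -0.73 ± 0.13, SE; edgeR adjusted p 0.000145).

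**Figure D1:**
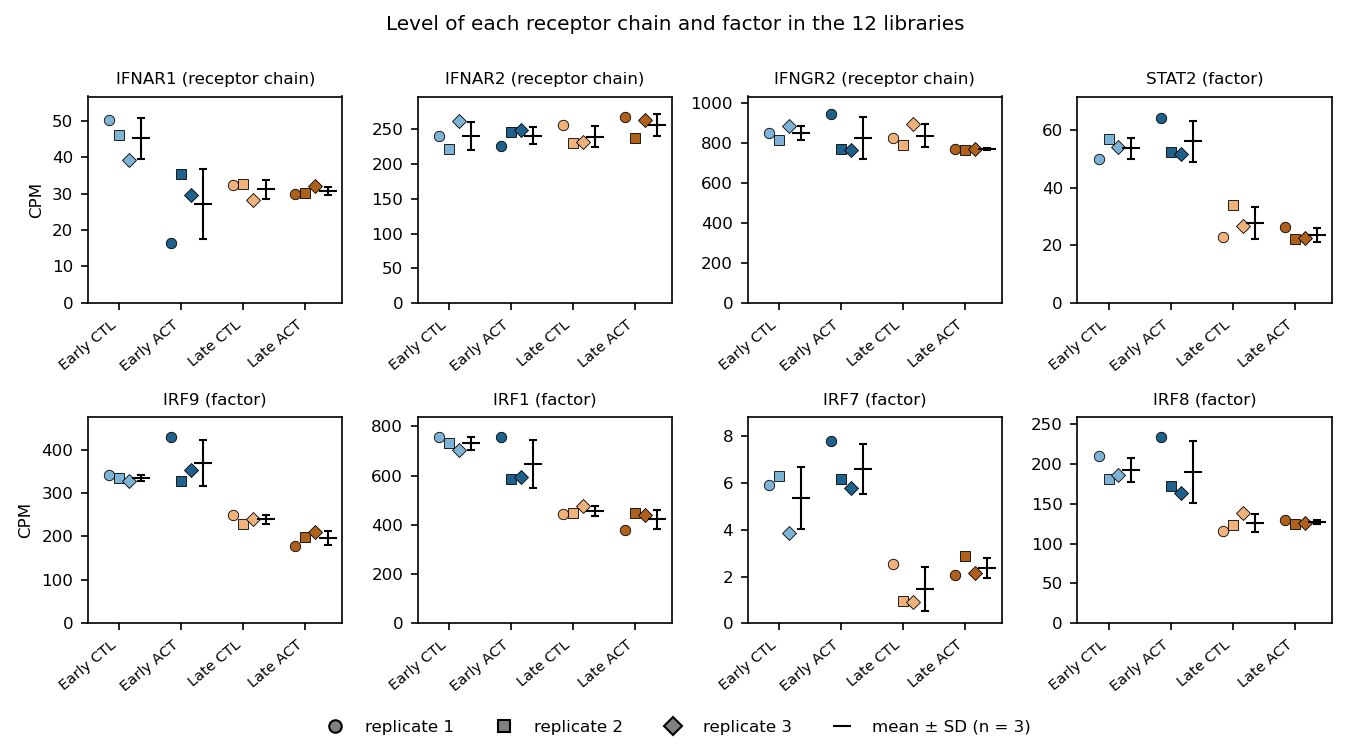
Level of the 8 genes in CPM (linear axes from 0) in each of the 12 libraries, with marker shape for the replicate and a bar for the mean ± SD (n = 3). The early (blue) and late (orange) libraries of STAT2, IRF9, IRF1, IRF7 and IRF8 do not overlap, while those of IFNAR2 and IFNGR2 do. Those of IFNAR1 do not overlap in unstimulated cells and overlap in stimulated cells. The share of all genes without overlap is not given here.

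Set side by side, 5 of 5 factors and 0 of 3 receptor chains passed late against early in unstimulated cells, all 5 lower. The same held in stimulated cells. In unstimulated cells IFNAR1 (-0.44, edgeR adjusted p 0.0561) fell no less than the factor IRF9 (-0.39). The genes were chosen with earlier results of these data known, so these counts do not test factors against receptor chains. Of all genes tested, 40.7% were called late against early in unstimulated cells, 19.8% lower and 20.9% higher. In stimulated cells 38.8% were called, 19.7% lower and 19.1% higher. Of 4641 genes between 10 and 100 CPM, the level of STAT2, 1307 were called lower and 755 higher in unstimulated cells. In stimulated cells 1279 of them were lower and 750 higher. Of 1495 genes between 100 and 1000 CPM, the level of IRF9, IRF1 and IRF8, 457 were lower and 326 higher in unstimulated cells. In stimulated cells 594 of those were lower and 204 higher. The median log2 difference of the factors was -0.59 in unstimulated and -1.07 in stimulated cells. That of the receptor chains was 0.07 and -0.06, and that of all genes 0.02 and 0.05. The calls of STAT2, IRF1, IRF7 and IRF8 held in 21 of 21 alternatives in both states, and that of IRF9 in 20 of 21 and 21 of 21. Without Early ACT replicate 1 the stimulated difference was -1.30 for STAT2, -0.95 for IRF9, -0.64 for IRF1, -1.49 for IRF7, -0.56 for IRF8 and -0.10 for IFNAR2, and the 5 factors passed. The authors' deposited tables list the 5 factors as lower late in both states, from -0.38 for IRF9 to -1.83 for IRF7 in unstimulated cells and from -0.73 for IRF8 to -1.61 for IRF7 in stimulated cells. Neither IFNAR2 nor IFNGR2 is listed there, and the tables hold only genes with an adjusted p under 0.05.

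**Figure D2:**
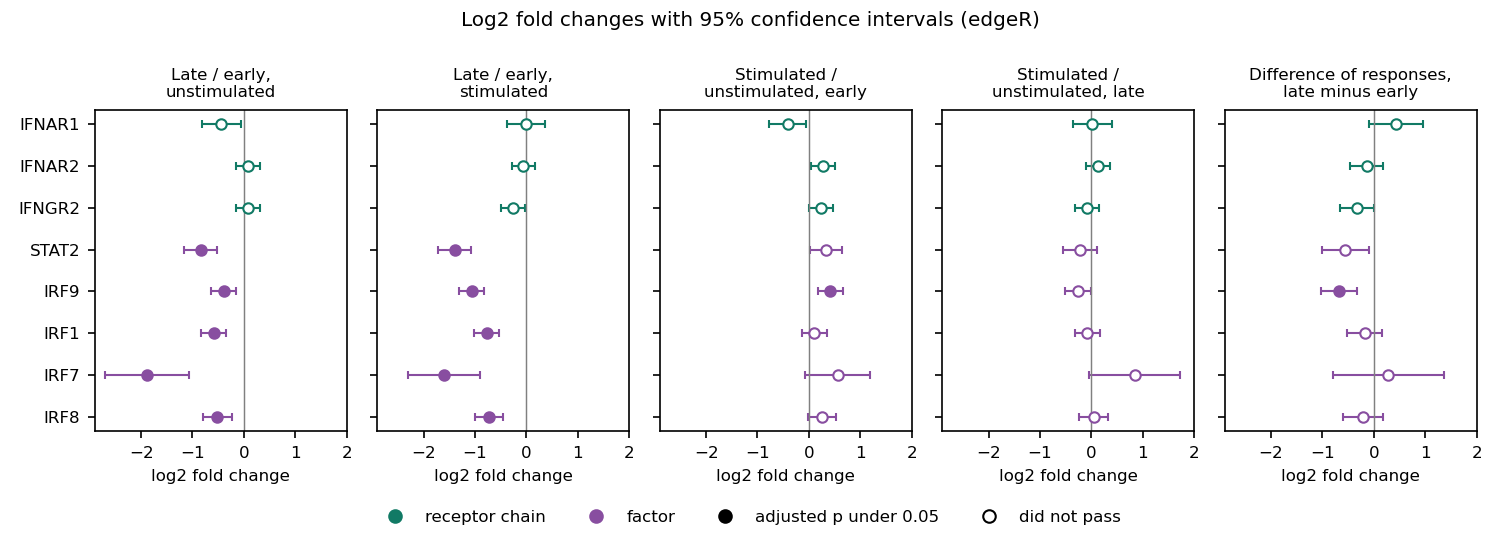
Log2 fold change of each gene with its 95% confidence interval in 5 comparisons, from edgeR. Filled points have an adjusted p under 0.05, and in the late over early panels all 5 factors are filled and lie below 0 while the 3 receptor chains are open. Of all genes tested, 40.7% passed late over early in unstimulated and 38.8% in stimulated cells.

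The same levels can be put as a single number per library, which restates the differences above and is no further evidence for them. Each gene's log2 CPM was centred on its mean over the 12 libraries and averaged over the factors and over the receptor chains, so that 0 is set by the centring. The factor average minus the receptor average was between 0.17 and 1.02 in the 6 early libraries, with a median of 0.36. In the 6 late libraries it was between -0.48 and -0.32, with a median of -0.47. The value of 1.02 belongs to Early ACT replicate 1, and the other 5 early libraries reached at most 0.43. The factor average was 0.44 ± 0.09 in Early CTL and -0.47 ± 0.08 in Late CTL (SD, n = 3), whereas the receptor average was 0.17 ± 0.05 and -0.02 ± 0.04. Since 3 chains and 5 factors enter, the receptor average of Early ACT, -0.11 ± 0.16, moves with IFNAR1, which was lowest in Early ACT replicate 1.

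**Figure D3:**
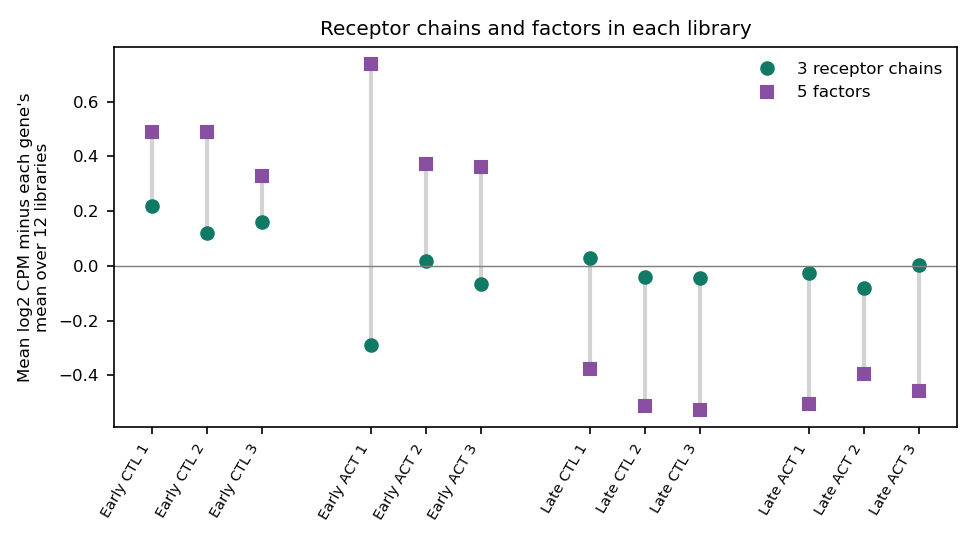
Mean log2 CPM of the 3 receptor chains (circles) and of the 5 factors (squares) in each library, each gene centred on its mean over 12 libraries; the grey line joins both averages of a library. The centring sets 0, and the factor average minus the receptor average is 0.17 to 1.02 in the early and -0.48 to -0.32 in the late libraries.

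Over the 12 libraries, which fall into an early and a late block, the Pearson correlation of log2 CPM was 0.75 to 0.94 for the 10 pairs of factors. It was -0.35 to 0.10 for the 3 pairs of receptor chains and -0.44 to 0.56 for the 15 mixed pairs. With each group's mean removed, the range was -0.44 to 0.90 for pairs of factors, -0.90 to 0.27 for pairs of receptor chains and -0.75 to 0.86 for mixed pairs, so within groups the factors did not all go together. All are descriptions, and each library's genes share its total. Among 6697 named genes, those most like STAT2 were TNIP2, LILRB4 and TAGLN2 (r 0.97 to 0.98). Those most like IRF9 were TRIM21, RAB24 and GPR108 (0.97 to 0.98), and those most like IRF1 were DNM2, LRP1 and HPS1 (0.99 each). IRF8 was most like NDUFA11, RILPL2 and CD14 (0.98 each), and IRF7 most like VWA8, TMC6 and ZMIZ2 (0.94 to 0.95). IFNAR1 was most like SLC25A24, ZNF292 and MAP3K2 (0.95 to 0.96), and IFNGR2 most like HLA-DRA, NEU1 and EIF4A3 (0.90 to 0.94). The best match of IFNAR2, CDC14A, reached 0.79. IFNGR2, IFNAR1, IL10RB and IFNAR2 are consecutive genes on chromosome 3 of the T2T-MMU8v2.0 assembly, and the 3 of them measured here were ordered differently across the groups.

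The summed markers of macrophages and of neutrophils were lower in each late group than in either early group. The 6 macrophage markers summed to 9814 to 10134 CPM in Early CTL, 7262 to 7984 in Early ACT, 5552 to 6174 in Late CTL and 5142 to 5346 in Late ACT. CD14 averaged 2359 CPM in Early CTL and 1534 in Late CTL, and CD163, which the sort also used, 1301 and 597, whereas MRC1 averaged 1.60 and 3.35. The 4 measured of 5 neutrophil markers summed to 555 to 614 CPM in Early CTL, 509 to 534 in Early ACT, 276 to 346 in Late CTL and 253 to 322 in Late ACT, mostly from CSF3R. CSF3R averaged 581 CPM in Early CTL and 315 in Late CTL, and CXCR2 6.60 and 3.79. MPO and ELANE went the other way at low levels, at 1.44 and 1.77 CPM and at 0.034 and 0.85 CPM. Conventional dendritic cell markers, 5 of 5 measured, summed to 68.8 to 80.5 CPM in Early CTL, 49.6 to 56.4 in Early ACT, 50.9 to 55.8 in Late CTL and 47.0 to 54.2 in Late ACT, overlapping between the stimulated groups, and CLEC9A was at 0 in the early libraries. B cell markers, 5 of 5 measured, summed to 3.85 to 4.96 CPM in Early CTL and 3.07 to 6.48 in Late CTL, which overlapped. Of 5 plasmacytoid dendritic cell markers 2 had a row, with CLEC4C at 8 counts over all libraries and TCF4 averaging 41.0 CPM in Early CTL and 30.3 in Late CTL. The part of these markers in the fall of the factors was not tested. In bulk libraries fewer cells of a type and less RNA per cell cannot be told apart.

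Few genes passed in the response to LPS and interferon-gamma, both among the genes followed here and among all genes tested. The low count thus does not set the followed genes apart. Early, 1 of 5 factors and 0 of 3 receptor chains passed, where 7.23% of all genes were called, 4.57% higher and 2.66% lower. The call was IRF9, which was 1.33-fold higher in Early ACT (log2 0.42 ± 0.12, SE; edgeR adjusted p 0.0292). After TMM scaling IRF9 averaged 309 ± 3.37 CPM in Early CTL and 413 ± 66.7 CPM in Early ACT (SD, n = 3), and on unscaled CPM the groups overlapped. With library totals as the only scaling, which moved the median of all genes by -0.28, IRF9 was at 0.14 (edgeR adjusted p 0.418), or 0.41 above that median. The call was also lost without any 1 of the Early CTL libraries (0.41 to 0.42) and with the compared groups alone (0.41), and it held without Early ACT replicate 1 (0.28, edgeR adjusted p 0.0138).

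The other factors did not pass early. STAT2 was at 0.33 (edgeR adjusted p 0.197), IRF7 at 0.56 (0.298), IRF8 at 0.26 (0.265) and IRF1 at 0.10 (0.680), all log2. Without Early ACT replicate 1 STAT2 was at 0.22, IRF7 at 0.44 and IRF8 at 0.068, and none of them passed. For IRF1, a textbook interferon-gamma target, the 95% interval of the early response was -0.14 to 0.34, and without Early ACT replicate 1 the value was -0.04. IFNAR1 was at -0.41 (edgeR adjusted p 0.173), IFNAR2 at 0.28 (0.148) and IFNGR2 at 0.24 (0.216). Without Early ACT replicate 1 IFNAR2 passed at 0.30 (edgeR adjusted p 0.0122), while IFNAR1 stood at -0.20 and IFNGR2 at 0.12. The sign of IFNAR2, IFNGR2, IRF1 and IRF8 in this response turned with library totals as the only scaling.

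Late, 0 of the 8 genes passed, and 0% of all genes were called by edgeR, with 527 of 11826 at an unadjusted p under 0.05 and 15 called by DESeq2. The log2 response ran from -0.26 for IRF9 to 0.84 for IRF7, and the interval of IRF7 was -0.04 to 1.72. Without Early ACT replicate 1, which also enters the shared spread, edgeR called 29 genes late and again none of the 8.

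The early and late responses differed for IRF9 by -0.68 ± 0.17 (log2, late minus early, SE; edgeR adjusted p 0.0379), where 1.41% of all genes were called, 1.23% lower and 0.186% higher. It rose early and stood at -0.26 late. That call was kept in 9 of 20 alternatives. The losses included library totals alone (-0.43, edgeR adjusted p 0.180) and the fits without any 1 of the Early CTL, Late CTL or Late ACT libraries, where the difference was -0.73 to -0.62. Without Early ACT replicate 1 it was -0.54 (edgeR adjusted p 0.000917). The differences of STAT2 (-0.55), IRF8 (-0.21), IRF1 (-0.18), IRF7 (0.28), IFNAR1 (0.43), IFNAR2 (-0.14) and IFNGR2 (-0.33) did not pass, nor did any of these 7 without Early ACT replicate 1, where they ran from -0.45 for STAT2 to 0.41 for IRF7.

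Other genes of the pathway were followed in lists chosen by role, also with earlier results known, each counted beside the same background. Of 11 interferon genes listed 4 had a row and 2 were tested. IFNB1, encoding interferon-beta, summed to 10 counts in Early CTL, 51 in Early ACT, 15 in Late CTL and 11 in Late ACT. It was higher in Early ACT than in Early CTL (log2 2.41 ± 0.63, SE; edgeR adjusted p 0.0164), and lower in Late ACT than in Early ACT (-2.02 ± 0.62; edgeR adjusted p 0.0119). The early call was lost without any 1 of the Early CTL libraries (edgeR adjusted p 0.0657 to 0.0994) and without Early ACT replicate 2 (0.0691) or 3 (0.0520). The difference between its early and late responses, -3.27, did not pass (edgeR adjusted p 0.0966). IFNE was higher late in unstimulated cells (1.94), from 23 counts in Early CTL to 56 in Late CTL. Among 5 related receptor chains tested, IL21R was lower late in unstimulated cells (-0.83), and IL10RA (-0.74) and IFNLR1 (-0.69) were lower late in stimulated cells. The call of IL21R was lost without Early CTL replicate 2 or 3 or any 1 of the Late CTL libraries (edgeR adjusted p 0.0516 to 0.0798). That of IFNLR1 was lost without Early ACT replicate 2 or 3 or Late ACT replicate 1 or 2 (0.0672 to 0.122).

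The kinases divided by gene. TYK2, which pairs with IFNAR1, was lower late in unstimulated (-0.72 ± 0.16, SE; edgeR adjusted p 0.00103) and stimulated cells (-0.84 ± 0.16; 0.000240). JAK1, which serves every interferon receptor, did not pass in either state (0.22 and 0.04), though the authors' deposited table lists it at 0.23 in unstimulated cells. JAK2, the partner of IFNGR2, was at 0.11 in unstimulated cells and was higher late in stimulated cells (0.49 ± 0.16; edgeR adjusted p 0.0154), a call lost with the compared groups alone (0.0614) and without Late ACT replicate 1 (0.0803). None of the 4 JAK genes passed in the response to stimulation at either time.

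STAT6, the factor of interleukin-4 signalling, was lower late at -0.73 in both states (edgeR adjusted p 5.32e-05 and 6.04e-05), and STAT3, which interleukin-10 and interleukin-6 activate, at -0.46 and -0.53 (0.00201 and 0.000615). STAT4 averaged 3.74 CPM in Early CTL, 6.04 in Early ACT, 3.94 in Late CTL and 6.67 in Late ACT and did not pass late against early in either state. The related IRF list, 6 tested, held 4 lower and 1 higher late in unstimulated cells. In stimulated cells it held 3 lower and 1 higher. Of all genes 19.8% were called lower and 20.9% higher in unstimulated cells, and 19.7% and 19.1% in stimulated cells. IRF5 (-1.38 and -1.20) and IRF3 (-1.34 and -0.98), which drive interferon genes downstream of pattern receptors, were lower late in both states. IRF4, linked to alternative macrophage activation, was higher late in unstimulated cells (0.93) and in stimulated cells (0.50, edgeR adjusted p 0.0444). The latter passed by little and was lost in 15 of 21 alternatives. For stimulation early, STAT4 (0.99) and IRF4 (0.82) rose and IRF3 (-0.56) and IRF5 (-0.41) fell, calls that were each lost without some single libraries, Early CTL replicate 3 in each case (edgeR adjusted p 0.138, 0.106, 0.156 and 0.0919). Of 21 alternatives STAT4 lost this call in 7, IRF4 in 5, IRF3 in 10 and IRF5 in 14.

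Of 12 inhibitors of the pathway tested, 7 were lower late in unstimulated and 6 in stimulated cells, and none was higher, where 19.8% and 19.7% of all genes were called lower. The median was -0.51 in unstimulated and -0.39 in stimulated cells. SOCS1, which blocks JAK kinases, was at -1.01 and -0.70, and SOCS3 at -0.54 and -1.05. The phosphatase PTPN6 was at -1.69 and -1.14, and USP18, which sits on IFNAR2 and dampens type I signalling, was at -2.58 in stimulated cells. Early stimulation raised SOCS3 (0.67 ± 0.12, SE; edgeR adjusted p 0.000457) and lowered PTPN6 (-0.82 ± 0.17; 0.00266).

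Upstream of IRF3 and IRF7, 9 of 16 genes were lower late in each state and none was higher, beside the same 19.8% and 19.7%, with medians of -0.53 and -0.63. MYD88, the adaptor of most Toll-like receptors, was at -1.58 and -1.76, and TMEM173, which encodes STING, at -1.61 and -1.75. Early stimulation raised 4 of the 16 and lowered 1, where 4.57% of all genes were called higher and 2.66% lower. The RNA sensors DDX58 (0.81 ± 0.13, SE; edgeR adjusted p 0.000146) and IFIH1 (0.67 ± 0.13; 0.00107) rose and TLR8 fell (-2.26 ± 0.41; 0.000522). Without Early ACT replicate 1 8 of the 16 passed, and without any other library of the early groups 3 did. Calls over all genes rose there too, from 855 of 11826 to 1554 of 12565 without Early ACT replicate 1. They fell to 464 of 12456 without Early CTL replicate 2.

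Most genes listed as ISGF3 targets were lower late. Of 22 tested targets 18 were lower late in unstimulated cells and 20 in stimulated cells, and none was higher, where 19.8% and 19.7% of all genes were called lower, with medians of -1.02 and -1.74. MX1, an antiviral GTPase, averaged 269 CPM in Early CTL, 303 in Early ACT, 83.9 in Late CTL and 55.2 in Late ACT, a late over early difference of -1.58 and -2.61. OAS2, which makes the activator of RNase L, was at -2.22 and -3.20. Of 11 interferon-gamma targets 6 and 8 were lower late, with medians of -0.89 and -0.69. The immunoproteasome genes PSMB8 (-1.47 and -1.62) and PSMB9 (-1.56 and -1.71) and the chemokine CXCL10 (-2.63 and -2.32) were among them.

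Early stimulation raised 8 of the 22 ISGF3 targets, with a median of 0.38, and 2 of the 11 interferon-gamma targets, with a median of -0.01, where 4.57% of all genes were called higher. ISG20, an exonuclease, rose by 1.07 ± 0.13 (log2, SE; edgeR adjusted p 3.20e-06) and IFIT3 by 0.86 ± 0.12 (1.82e-05). IDO1, which degrades tryptophan, rose by 0.55 ± 0.12 (0.00282), a call lost with library totals alone (0.0786). It averaged 4051 CPM in Early CTL and 4881 in Early ACT. Of the 11 interferon-gamma targets 9 did not pass early in either direction, CXCL10, PSMB8 and PSMB9 among them. In unscaled CPM CXCL10 averaged 29.8 in Early CTL and 16.5 in Early ACT, PSMB8 101 and 73.1, and PSMB9 38.8 and 27.6. The 2 targets that passed were both higher. The count of 8 became 13 without Early ACT replicate 1 and 4 to 5 without any other library of the early groups, and 2 with library totals alone. Over all genes 855 of 11826 were called early with the 12 libraries, and 1554 of 12565 without Early ACT replicate 1. Leaving out 1 library gave the fewest, 464 of 12456, without Early CTL replicate 2. With library totals alone 279 of 2413 calls were higher. The 2 interferon-gamma targets became 1 without Early CTL replicate 1 or 2. In the late response 0 of the 22 and 0 of the 11 passed in edgeR, and of the 22 DESeq2 called 2, the compared groups alone 1, and the fit without Early ACT replicate 1 3. Over all genes these fits called 15, 10 and 29.

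**Figure D4:**
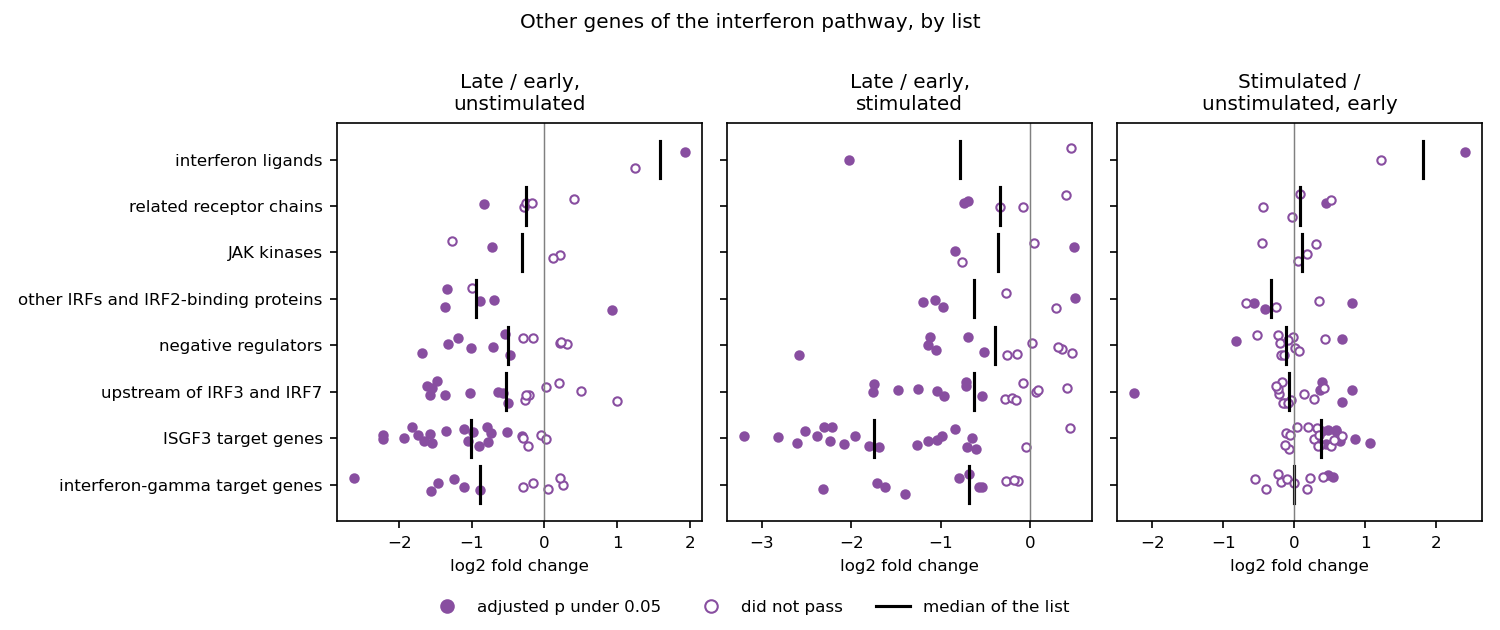
Log2 fold change of the tested genes of 8 pathway lists in 3 comparisons, with filled points for an edgeR adjusted p under 0.05 and a bar for the median of the list. The ISGF3 targets have medians of -1.02, -1.74 and 0.38 from left to right.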

How the data were processed

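RNA was sequenced from SMART-Seq v4 cDNA with Nextera XT libraries, per the labels' protocols. The submitters' processing notes name bcl2fastq and build Mmul_8.0.1; which aligner and counter were used is not given in the sources used here. The authors deposited raw counts per gene, whole numbers with no scaling, and a pair of tables of late over early listing a log2 fold change, its standard error, a test score, a p-value and a mean signal across libraries, for genes with an adjusted p under 0.05.

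Identifiers were named from row symbols, a name table (15138) or the authors' tables alone (436). A symbol found on more than 1 row was not used (2418 rows). Counts were tested with edgeR 4.0.16 in R 4.3.3 (quasi-likelihood F test, robust, TMM, filterByExpr by group, 4 group coefficients over 12 libraries, 5 contrasts). Each SE was obtained by dividing the size of the log2 fold change by the root of its F statistic. Log2 CPM used a prior count of 2. The fit was also run on simulated data, and no rate of recovered or false calls is given here. DESeq2 1.42.0, other scalings and filters, thinning to the lowest total, a replicate block and leaving out libraries were alternatives.

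The 9 genes and the pathway and marker lists were chosen with earlier results of these data known. By rule the text names these genes, JAK1, JAK2, TYK2 and SOCS1, and up to 4 called genes of a list with the smallest p. For each of the 8 genes it also names the 3 genes, of those with a mean CPM of 5 or more, with the highest correlation. A further gene of the rule is not reported here.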

Additional observations from a re-analysis of the deposited data

Results flagged for a closer look

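The early and late responses to stimulation differed, by the interaction term of the edgeR fit, for 1 of the 8 genes and for 5 of the 22 ISGF3 targets. Of all genes 1.41% were called in this difference, 1.23% lower and 0.186% higher. The 6 were each lower in the late response. IRF9 differed by -0.68 (log2, late minus early; edgeR adjusted p 0.0379), with a response of 0.42 early and -0.26 late, and passed in 9 of 20 alternatives. MX1 differed by -1.02 (edgeR adjusted p 0.000196), which passed in 20 of 20 alternatives. OAS2 differed by -0.98 (edgeR adjusted p 0.00888) and passed in 17 of 20, and MX2 by -0.73 (0.0118) in 15 of 20.

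IFIT5 differed by -0.88 (edgeR adjusted p 0.0369) and ISG20 by -0.75 (0.0361), and each passed in 9 of 20 alternatives. ISG20 averaged 205 CPM in Early CTL, 355 in Early ACT, 164 in Late CTL and 199.8 in Late ACT, so its mean was higher after stimulation at both times. The count of 5 targets became 11 without Early ACT replicate 1. It became 1 to 3 without any 1 of the Early CTL or Late ACT libraries or Late CTL replicate 2. Calls over all genes moved too, from 167 of 11826 to 546 of 12565 without Early ACT replicate 1. They fell to 95 of 12456 without Early CTL replicate 2.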

How the results depend on the processing

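In the time comparisons the calls of the 5 factors held in every alternative except that of IRF9 in unstimulated cells with upper-quartile scaling. Upper-quartile scaling moved the median of all genes by 0.15 and the receptor median to 0.20 in unstimulated cells. It moved the share of calls that were higher from 51.3% to 63.3% in unstimulated and from 49.3% to 61.0% in stimulated cells. Library totals alone moved it to 65.2% in stimulated cells, from 63.3% to 11.6% in the early response, and from 13.2% to 61.4% in the difference of responses.

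With library totals alone the early response had 2413 calls, with medians of -0.040 for receptor chains and 0.052 for factors. The receptor median was 0.10 in late over early stimulated cells. In the difference of responses the medians were 0.10 and 0.034, with 0 of the 8 genes called. The compared groups alone gave 503 calls and 0 of the 8 genes early, and 10 calls late. DESeq2 called 2 of the 8 genes early, 15 genes late and 313 in the difference of responses. Late calls were 2 with upper-quartile scaling and 5 with no low-count filter.

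Signs turned for small values that had not passed. With library totals alone IFNAR2 was at -0.0050 and IFNGR2 at -0.015 late over early unstimulated. In the early response IFNAR2 was at -0.00079, IFNGR2 at -0.040, IRF1 at -0.18 and IRF8 at -0.025. In the late response IFNAR1 was at -0.018. In the difference of responses IFNAR2 was at 0.10, IRF1 at 0.068 and IRF8 at 0.034. In late over early stimulated cells IFNAR1 was at 0.023 with RLE factors, 0.097 with upper-quartile factors, 0.14 with library totals alone, 0.014 with the compared groups alone and 0.026 with DESeq2. IFNAR2 was at 0.045 with upper-quartile factors and 0.10 with library totals alone. Thinning to the lowest total put the late response of IFNAR1 at -0.081. The row the authors name IRF9, an alternative chosen after seeing the data, gave 0.084 early, 0.088 late and 0.0038 for the difference.

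Leaving out each library in turn gave 4254 to 6148 calls and 5 to 6 of the 8 genes in unstimulated cells, and 3689 to 4908 calls and 5 to 6 of the 8 in stimulated cells. It gave 464 to 1554 calls and 0 to 2 of the 8 early, 0 to 29 calls and 0 of the 8 late, and 95 to 546 calls and 0 to 1 of the 8 in the difference of responses. Signs turned for IFNAR1 in late over early stimulated cells (-0.24 to 0.19) and in the late response (-0.052 to 0.049), for IRF1 in the early response (-0.044 to 0.18), and for IRF8 in the late response (-0.0075 to 0.11). The causes of these changes were not tested.

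Replicate numbers did not pair the samples: in 18 same-number pairs the correlation of deviations was -0.09 to 0.10 and 0 were over 0.1. With the replicate number as a block there were 4596, 4354, 727, 0 and 114 calls in the 5 comparisons, in the order unstimulated, stimulated, early response, late response and difference. The block left 5, 5, 1, 0 and 0 of the 8 genes called, and IRF9's difference of responses was -0.67 (edgeR adjusted p 0.0741) and 3 of the 22 ISGF3 targets had a difference. IFNAR1 late over early in stimulated cells was then at 0.014. IRF7 and IFNB1 rested on few counts.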
